A study of Mus musculus with 4 samples.

Results

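The regions described here carry a called peak of Bach2 and no called peak of Bach1 or Mafk in M1, a line of mouse myeloid leukemia cells. They were chosen by merging all peaks of the 3 factors that share at least 1 base, leaving out the mitochondrial genome, and keeping merged regions that hold Bach2 alone. This gave 203 of 5408 regions, or 3.75% (95% Wilson interval 3.28 to 4.29). Every one of the 203 regions holds exactly 1 Bach2 peak, so they make up 14.7% of the 1385 peaks in the Bach2 list (12.9 to 16.6). The other 1182 Bach2 peaks lie in 871 regions with Bach1, 297 regions with Bach1 and Mafk, and 2 regions with Mafk. All intervals on shares in this text are 95% Wilson intervals over peaks or regions of these libraries and cover counting error only, and neighbouring regions are not independent.

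The study mapped the factors by chromatin immunoprecipitation followed by sequencing in cells grown without stimulation. One library was made with an in-house antibody to Bach1, another with an in-house antibody to Bach2, another with a purchased antibody to NF-E2 p18, which is Mafk, and an input library had no antibody. With 1 library for each factor there is no replicate error, so no test between factors was possible. Absence of a peak means only that the site did not pass the threshold of that list. Whether either Bach antibody also recognises the other Bach protein was not tested.

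Bach1 and Bach2 are repressors with a BTB domain, through which they dimerise and contact corepressors, and a basic leucine zipper, through which they pair with small Maf proteins such as Mafk and bind Maf recognition elements. Heme binds both Bach proteins and lowers their DNA binding. Bach1 is best known as the repressor of Hmox1, the inducible heme-degrading enzyme. Bach2 is best known in lymphocytes, where it represses Prdm1, the regulator of plasma cell differentiation. Small Maf proteins have no transactivation domain of their own. The other small Maf proteins, Mafg and Maff, were not profiled here.

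Regions with Bach2 alone were weak sites of the Bach2 list. The deposited fold enrichment, which is the pileup of fragments at a peak's summit over the local background of the control, had a median of 3.52 in the 203 regions (quartiles 3.00 to 4.17, range 1.91 to 10.6). The other Bach2 peaks had a median of 4.69 (3.67 to 6.18, up to 24.4). The median was 4.50 at Bach2 peaks with Bach1 and 5.53 at those with both Bach1 and Mafk, so the order ran from Bach2 alone to all 3 factors. The pileup at the summit followed the same order, with medians of 52 fragments for Bach2 alone (range 24 to 129), 66 with Bach1 and 86 with all 3. Lower strength was not particular to Bach2. Peaks with Bach1 alone had a median fold enrichment of 4.05, against 7.11 for the other Bach1 peaks. For Mafk the order was reversed, with 5.01 for Mafk alone and 4.39 for the other Mafk peaks. These values belong to the peak calling that chose the regions, and they are given as a description without a test.

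A fold enrichment of at least 4 was reached by 61.4% of all Bach2 peaks. Among the regions with Bach2 alone, 66 of 203 reached it, or 32.5% (26.4 to 39.2), against 785 of 1182 other Bach2 peaks, or 66.4% (63.7 to 69.0). Divided into 10 equal groups by fold enrichment, the weakest group of the Bach2 list had 44 of 139 peaks with Bach2 alone, or 31.7% (24.5 to 39.8). The share was 15.8% (10.7 to 22.8) in the fifth group, 5.76% (2.94 to 10.9) in the eighth, 1.45% (0.398 to 5.13) in the ninth and 2.16% (0.737 to 6.15) in the strongest. By pileup, the highest of 10 groups, from 136 fragments upwards, held none of the regions: 0 of 139 peaks, with an upper Wilson bound of 2.69%.

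**Figure D1:**
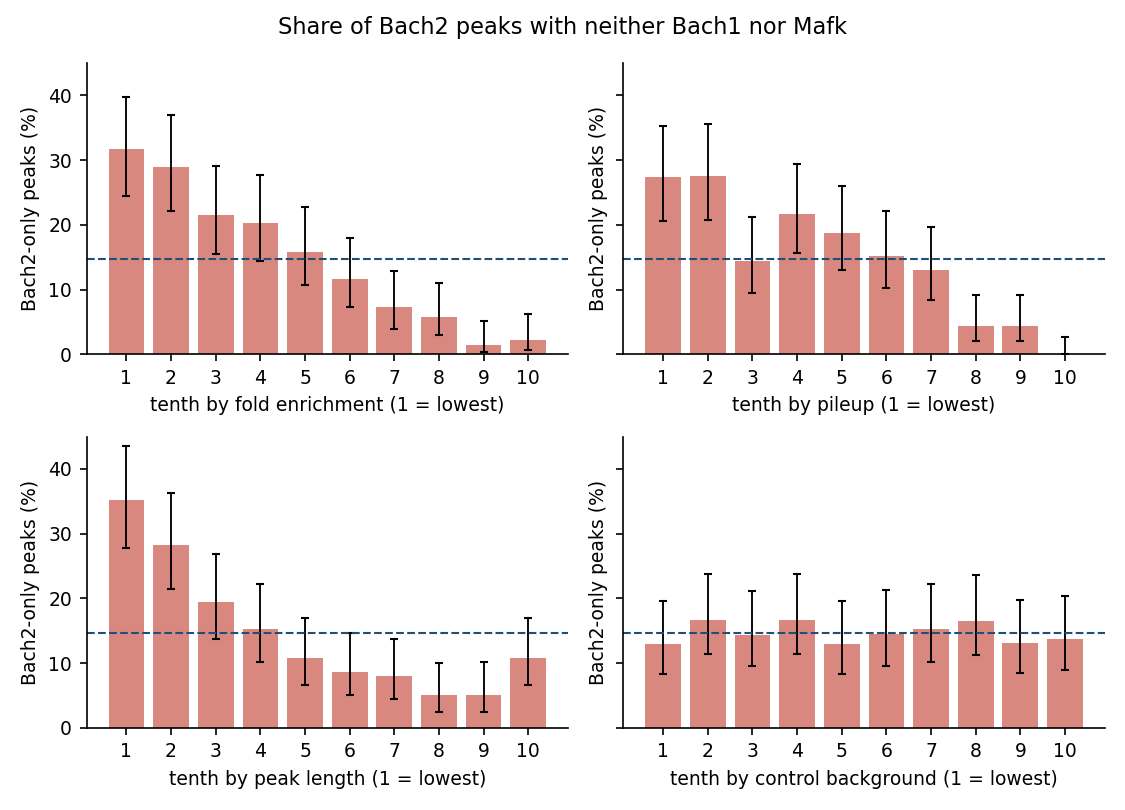
Share of Bach2 peaks with neither Bach1 nor Mafk (y axis, percent) in 10 equal groups of the Bach2 list (x axis, 1 = lowest) by fold enrichment, pileup, peak length and control background; error bars are 95% Wilson intervals and the dashed line is the 14.7% of the whole list. The share goes from 31.7% in the weakest to 2.16% in the strongest group by fold enrichment, while by control background each group lies between 12.9% and 16.7%.

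The control background had the same median as elsewhere in the list. It was computed at each summit from the pileup and the fold enrichment, and its median was 2.56 times the lowest value of the list both in the 203 regions (quartiles 1.76 to 3.36) and in the other Bach2 peaks (1.71 to 3.52). Over 10 equal groups by background, the share of peaks with Bach2 alone ranged from 12.9% to 16.7%. At the lowest background were 12 of the 203 regions, or 5.91% (3.41 to 10.0), and 67 of the 1182 other peaks, or 5.67% (4.49 to 7.14). A background of at least 5 times the lowest, found at 6.93% of all Bach2 peaks, occurred at 9 of the regions, or 4.43% (2.35 to 8.21). The highest in the 203 regions was 7.36 times the lowest, whereas other Bach2 peaks reached 33.9 times. The list was also divided into 3 equal groups by background and into 3 by fold enrichment. In the group of lowest background, 18 of 52 peaks of the weakest group by fold enrichment had Bach2 alone, or 34.6% (23.2 to 48.2), against 11 of 212 of the strongest group, or 5.19% (2.92 to 9.05). In the group of highest background the same counts were 59 of 265, or 22.3% (17.7 to 27.6), and 0 of 96, with an upper bound of 3.85%.

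Peaks without a partner were also short. Their median length was 284 bp (quartiles 247.5 to 347.5), against 357 bp for the other Bach2 peaks (292 to 440). The shortest peak in the list has 234 bp, and 59 of the 203 regions, or 29.1% (23.3 to 35.7), were 250 bp or shorter, against 106 of 1182, or 8.97% (7.47 to 10.7). Length and strength are linked in such lists, so lengths were also set side by side within a range of strength. Below a fold enrichment of 4, the median was 275 bp in 137 regions with Bach2 alone and 293 bp in 397 other peaks, and from 4 upwards it was 294 bp in 66 and 388 bp in 785. Strength still differed within each range, with median fold enrichments of 3.16 against 3.33 below 4 and 4.63 against 5.49 above. Lengths at equal strength were thus not compared. Peaks with Bach1 alone were also shorter than other Bach1 peaks (311 against 449 bp), while those with Mafk alone were longer than other Mafk peaks (341 against 307 bp).

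Long peaks with Bach2 alone were rare but present. A length of at least 700 bp was found in 8 regions, or 3.94% (2.01 to 7.58), and in 65 other Bach2 peaks, or 5.50% (4.34 to 6.95). The longest, named here after its values were seen, was chr1:103785617-103787229 in mm9, with 1613 bp, a pileup of only 37 fragments and a fold enrichment of 3.00. Next came chr11:115882165-115883233 with 1069 bp and a fold enrichment of 3.38. The third was chr15:79906488-79907521 with 1034 bp and 3.25. These 3 regions were thus long and weakly enriched, whereas the 3 strongest regions with Bach2 alone measured 401 to 623 bp.

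How weak a Bach1 signal at these sites could be and still be called was read from the Bach1 list itself. For each Bach2 peak, the lowest fold enrichment of any Bach1 peak at the same multiple of the lowest background (within 10%) was taken as the level at which Bach1 peaks begin to be called. The multiples matched between the lists: at 1086 shared regions with summits within 100 bp, the Bach1 multiple divided by the Bach2 multiple had a median of 1.00 (quartiles 0.966 to 1.03). At the 203 regions this Bach1 level had a median of 2.36 (range 1.83 to 3.53). It is the lowest value called and not a strict bound, since a site can pass it and still be missed. The lowest background per base of the shortest peak was 1.30 times as high in the Bach2 list as in the Bach1 list. If the peak caller scaled the control to each library, this is their relative depth, but the reads per library are unknown.

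Most regions with Bach2 alone had a Bach2 fold enrichment below 2 times that Bach1 level. Their Bach2 fold enrichment was a median of 1.37 times the lowest Bach1 value (quartiles 1.21 to 1.58), against 1.77 times for the other Bach2 peaks (1.43 to 2.38). In 6 of the 203 regions it was below the Bach1 level. It was at least 1.5 times the Bach1 level in 65 regions, or 32.0% (26.0 to 38.7), where the whole list has 63.7%. It was at least 2 times the level in 12 regions, or 5.91% (3.41 to 10.0), where the whole list has 33.3%. When the 10th percentile of Bach1 values replaced the lowest, 3 regions stood at 2 times or more. Fold enrichments of Bach1 and Bach2 need not be on the same scale: where both were called, Bach1 divided by Bach2 had a median of 1.60. The multiples therefore describe Bach2 strength and do not show what a Bach1 signal at these sites would be.

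**Figure D2:**
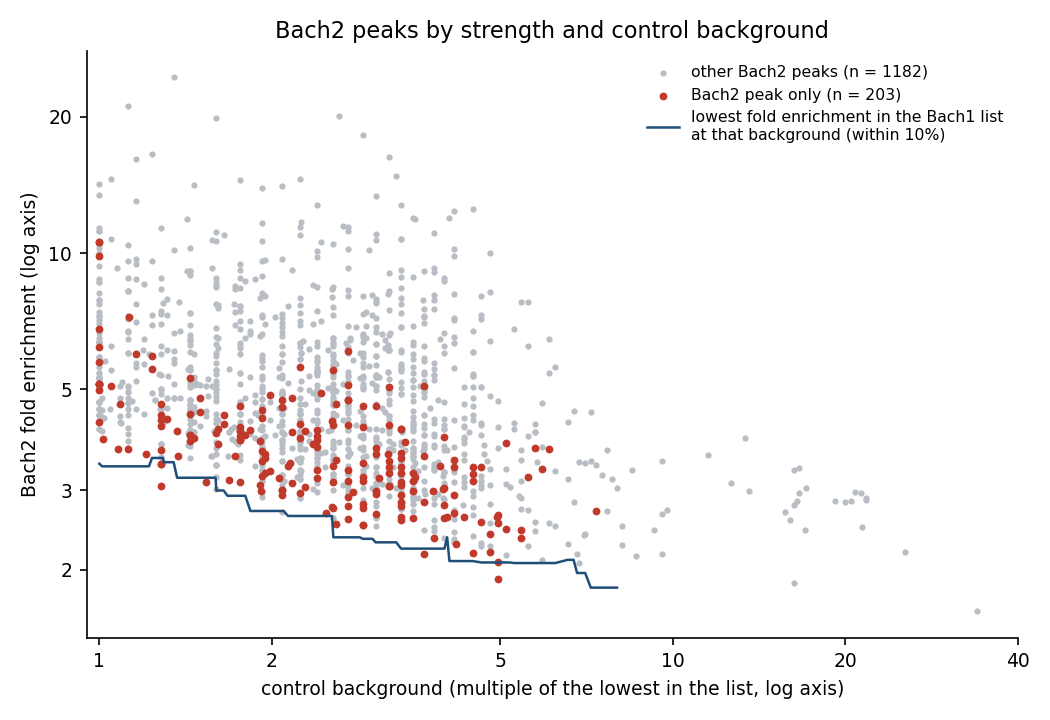
Bach2 fold enrichment (y axis, log) against the control background as a multiple of the lowest in the list (x axis, log) for the 203 peaks with Bach2 alone (red) and the other 1182 Bach2 peaks (grey); the line is the lowest fold enrichment of the Bach1 list at that background, drawn up to 8 times the lowest. Most red points lie close above the line, and those near 10 stand at the lowest background.

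The same reading against the Mafk list gave similar values. The lowest Mafk fold enrichment at the background of the 203 regions had a median of 2.53 (range 2.30 to 3.29). Bach2 stood at a median of 1.35 times this level (1.18 to 1.55), and at 2 times or more in 10 regions, or 4.93% (2.70 to 8.83), against 421 of 1182 other Bach2 peaks, or 35.6% (32.9 to 38.4). For some of the regions as few as 6 Mafk peaks had a matching background, so this level is less certain than that of Bach1, for which at least 52 peaks matched. Read against the lowest values of the Bach2 list itself, the median was 1.37 for the regions and 1.74 for the other Bach2 peaks. At 2 times or more were 10 of the 203 regions, or 4.93% (2.70 to 8.83), against 431 of 1182 other Bach2 peaks, or 36.5% (33.8 to 39.2). The values for Bach1 and Mafk were thus close to those within the regions' own list.

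**Figure D3:**
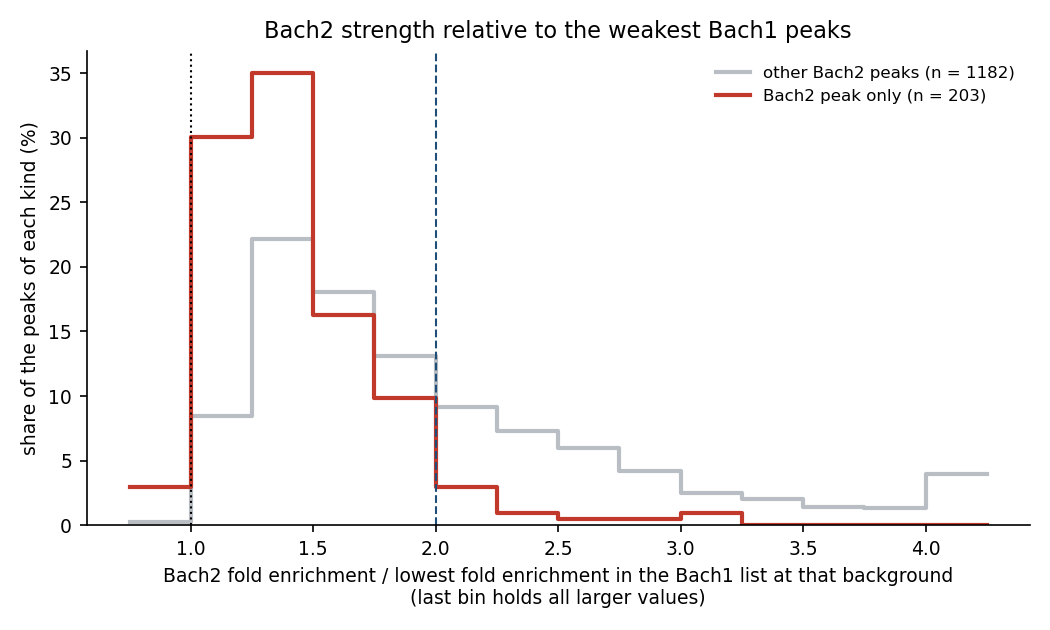
Bach2 fold enrichment divided by the lowest Bach1 fold enrichment at that background (x axis; the last bin holds all larger values) as the share of peaks of each kind (y axis, percent), for Bach2 alone (red) and other Bach2 peaks (grey). The dotted line marks 1 and the dashed line 2: 12 of the 203 peaks with Bach2 alone lie at 2 or above, with medians of 1.37 for Bach2 alone and 1.77 for the rest.

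The 12 regions at 2 times the Bach1 level or more were picked by their Bach2 fold enrichment and have no Bach1 value of their own. The strongest were chr17:68454746-68455146 (summit 68454929) and chr4:138058716-138059338 (summit 138059094), each with a pileup of 69 fragments and a fold enrichment of 10.6 at the lowest background. Both are tied in rank 50 of the 1385 Bach2 peaks. The weakest Bach1 peaks at that background had 3.43, so a Bach1 signal at this level would have been 0.324 times the Bach2 value. At the 1168 regions where both factors were called, the Bach1 value divided by the Bach2 value had a median of 1.60 (quartiles 1.17 to 2.12) and was never below 0.415. The third region, chr11:54987153-54987562, had 64 fragments and a fold enrichment of 9.83, which gives a ratio of 0.349 at the Bach1 level. At chr4:133400165-133400552, with 98 fragments and 6.09, this ratio was 0.387. In these 4 regions, picked for a high Bach2 value over the Bach1 level, the calculated ratio lay below that of every shared region. It holds no Bach1 value of the regions themselves, and the result depended on taking the lowest Bach1 value. With the 10th percentile of Bach1 values the 4 ratios were between 0.438 and 0.509, and 0 regions lay below every shared region. Shared regions can also show no ratio for a Bach1 signal that was not called. The comparison therefore does not show a preference for Bach2 at these sites.

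The remaining 8 of these 12 regions had a fold enrichment between 4.74 and 7.24 and a ratio at the Bach1 level between 0.426 and 0.498. Of the 1168 shared regions, 1 or 2 had a ratio as low. This ratio is the inverse of the multiple by which the 12 regions were chosen, so low values followed from that choice. All shared regions had a called Bach1 peak, so these counts do not measure rarity. The highest fold enrichment among the 8 regions was at chr9:62873931-62874266 (7.24, 52 fragments). The highest pileup was at chr7:87975393-87975768 (109 fragments, 5.08), which lies 1.677 kb from a Bach1 peak with a fold enrichment of 5.45. Another, chr3:96077503-96077927 (82 fragments, 5.11), closes a run of 8 Bach2 peaks spaced by at most 50 kb and is the only one of them without Bach1. Across the 12 regions the nearest Bach1 peak lay between 1.677 and 625 kb away and the nearest Mafk peak between 27.1 and 2617 kb.

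Ranking by fold enrichment alone favoured sites of low background. Besides chr17, chr4, chr11 and chr9 above, the 10 highest included chr6:37156818-37157265 (fold enrichment 6.81, 44 fragments), chr1:81372058-81372345 (6.20, 40 fragments) and chr7:95469395-95469762 (5.99, 44 fragments). The last were chr2:166267310-166267593 (5.75, 37 fragments) and a region on chromosome 18 (5.93, 46 fragments). Apart from chr4:133400165-133400552, these 10 regions had a background of at most 1.24 times the lowest.

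Ranking by pileup gave other regions. The highest pileups were at chr3:74244728-74244972 (129 fragments, fold enrichment 3.70) and chr3:152575128-152575459 (123 fragments, 3.72). They stood at 6.08 and 5.76 times the lowest background. Next were chr15:99163464-99163711 (113 fragments, 2.70), where the background was 7.36 times the lowest, and chr3:69012442-69012729 (113 fragments, 3.33). The others were chr7:106823336-106823671 (112 fragments, 3.80), chr7:87975393-87975768 above, chr16:96049135-96049506 (103 fragments, 3.21), chr2:35754329-35754656 (95 fragments, 5.07) and chr16:10814990-10815352 (91 fragments, 3.93). Only chr4:133400165-133400552, with 98 fragments, was among the 10 highest by both measures.

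The 5 weakest regions lay close to the weakest peaks of the Bach1 list and of their own list. This follows from picking them by low fold enrichment: each was at most 1.14 times the lowest Bach2 value at its background. The lowest fold enrichment was 1.91, at chr2:24600541-24600785 with 54 fragments, where the weakest Bach1 peaks had 2.08. It was followed by chr15:66715359-66715593 (2.08, 59 fragments) and chr17:13245378-13245648 (2.17, 46 fragments). The next were chr3:153568716-153569415 (2.18, 56 fragments) and chr2:127033797-127034035 (2.18, 60 fragments). All 5 stood at 3.68 to 4.96 times the lowest background.

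The number of regions depended on what counts as shared: it was 203 with at least 1 shared base, 277 with a reciprocal overlap of 50% and 293 with summits within 100 bp. Just inside the rule used here, the region nearest to a Bach1 peak was chr13:21813347-21813609, with a fold enrichment of 3.32 and a gap of 217 bp to a Bach1 peak of 4.16. It lies in a run of 18 Bach2 peaks spaced by at most 50 kb, and is the only one of the 18 with Bach2 alone. Next was chr11:106362759-106363190 (2.99), with a gap of 261 bp to a Bach1 peak of 3.00. The gaps were 718 bp at chr16:45058501-45058773 (2.28), 828 bp at chr11:106363326-106363634 (2.57) and 1034 bp at chr19:5794630-5794865 (2.77). Measured to merged regions and not to Bach1 peaks, the nearest was chr16:45058501-45058773, 61 bp from a region with Bach1 and Bach2.

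Just outside the rule, the smallest overlap of a Bach2 peak with a partner was 62 bp, at chr1:132916060-132916312 (Bach2 3.19, Bach1 2.83), with summits 151 bp apart. The next was 160 bp, at chr4:125780473-125780722 (3.11 and 3.54). The others were chr2:164466719-164466976 (171 bp shared, 3.79 and 4.62), chr17:71202081-71202323 (179 bp, 3.26 and 3.06) and chr9:62358280-62358513 (179 bp, 3.11 and 2.96). Of the 1182 Bach2 peaks with a partner, 1 shared 100 bp or fewer with it.

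The distance to Bach1 sites elsewhere was close in median to that between Bach1 sites. The nearest other region with Bach1 was a median of 89.97 kb away (quartiles 21.4 to 263). For regions with Bach1 alone the distance to another Bach1 region was 97.6 kb (25.3 to 266), for regions with Bach1 and Bach2 it was 81.9 kb (19.7 to 246), and for regions with Mafk alone 192 kb (63.9 to 485). Within 10 kb of a Bach1 region were 34 of the 203 regions, or 16.7% (12.2 to 22.5), 16.0% (14.7 to 17.5) of those with Bach1 alone and 4.72% (3.70 to 5.99) of those with Mafk alone. Within 1 kb the order was different, with 4 of the 203 regions, or 1.97% (0.769 to 4.96), against 7.56% (6.61 to 8.65) of those with Bach1 alone. The first share is to peaks of another list and the second to peaks of the same list. Another region with Bach2 lay within 1 kb of 8.87% (5.68 to 13.6) of the 203 regions and of 1.09% (0.753 to 1.57) of those with Bach1 alone. Of the 34 regions within 10 kb, the nearest Bach1 peak also had Bach2 in 10. The share with all Bach1 peaks over 1 Mb away was 4.93% (10 regions).

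**Figure D4:**
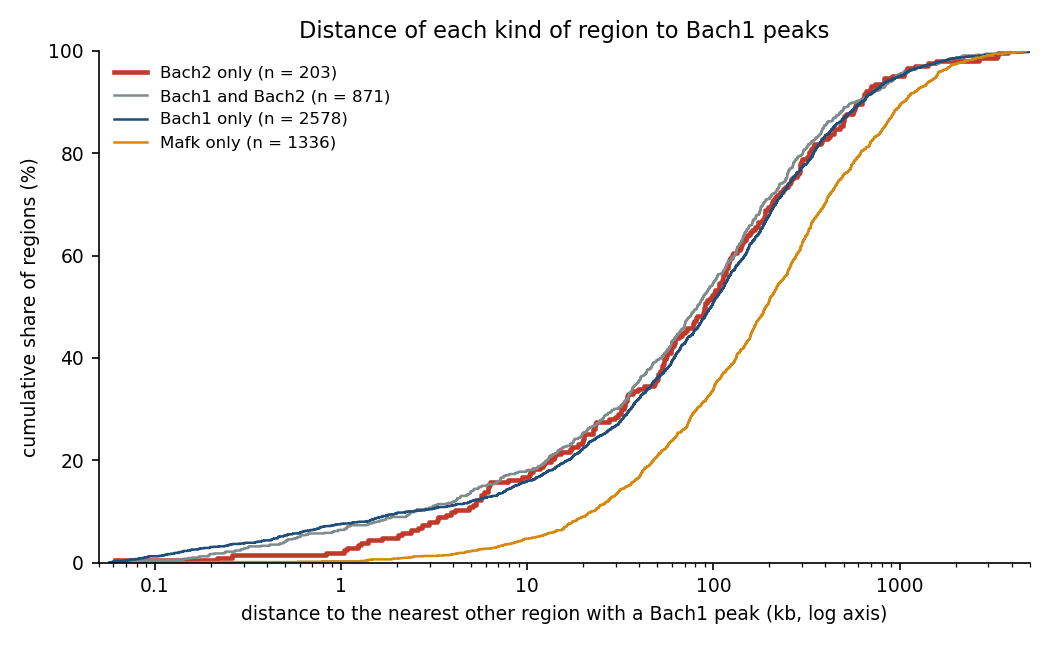
Cumulative share of regions (y axis, percent) by distance to the nearest other region with a Bach1 peak (x axis, kb, log) for regions with Bach2 alone, Bach1 and Bach2, Bach1 alone and Mafk alone. The curve of Bach2 alone runs with those of both Bach1 classes above 5 kb, with a median of 89.97 kb, and that of Mafk alone lies to the right with 192 kb.

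Mafk peaks lay farther away than Bach1 peaks. The median distance to a region with Mafk was 364 kb (129 to 885), against 321 kb (100.2 to 783) from regions with Bach1 and Bach2. From regions with Bach1 alone it was 328 kb (112 to 828). The Mafk list is also shorter, with 1759 peaks against 3873 for Bach1. None of the 203 regions had a Mafk region within 1 kb (upper bound 1.86%), and 3 had one within 10 kb, or 1.48% (0.504 to 4.25). Within 1 kb the share was also low elsewhere, with 0.344% (0.117 to 1.01) of regions with Bach1 and Bach2 and 0.543% (0.324 to 0.910) of those with Bach1 alone. Within 10 kb it was 3.67% (2.61 to 5.14) and 3.45% (2.81 to 4.23), and the intervals overlapped that of Bach2 alone. The nearest were chr11:105014741-105015011 (fold enrichment 4.07), with a gap of 1.757 kb, and chr10:53136816-53137078 (3.86), with 1.952 kb. The gap was 9.703 kb at chr17:13245378-13245648, 13.996 kb at chr3:69012442-69012729 and 14.378 kb at chr13:21813347-21813609.

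Some of the regions lay side by side. Within 10 kb of another region with Bach2 alone were 24 of the 203, or 11.8% (8.07 to 17.0), and within 1 kb 16, or 7.88% (4.91 to 12.4). The share within 10 kb of a region of the same kind was 10.8% (8.90 to 13.0) for Bach1 and Bach2, 12.9% (11.7 to 14.3) for Bach1 alone, 4.04% (2.33 to 6.93) for all 3 factors and 2.77% (2.02 to 3.79) for Mafk alone. The interval of Bach2 alone overlapped those of both Bach1 classes. The grouped regions were weak and in part long: their median fold enrichment was 3.09 against 3.61 in the 179 others, and their upper quartile of length was 538 bp against 336.5 bp.

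Runs of Bach2 peaks spaced by at most 50 kb contained 2 or 3 of these regions in 12 places. The runs with 3, named after their values were seen, were chr1:103784669-103790010 and chr7:150414310-150423881, and neither holds any other Bach2 peak. In the first, the 3 fold enrichments were 3.13, 3.00 and 4.40 with pileups of 33, 37 and 35 fragments. In the second they were 3.89, 3.06 and 3.42 with 25, 24 and 27 fragments, and 24 is the lowest pileup of the whole Bach2 list. Other close neighbours were chr13:58490653-58490960 and chr13:58491013-58491285 (3.92 and 3.79) and chr7:3659668-3660040 and chr7:3660097-3660359 (3.11 and 3.04). Whether such neighbours are parts of 1 wider site was not tested, and they are not independent of each other.

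By contrast, few of the regions fell into the dense groups of the Bach2 list. Runs of 5 or more Bach2 peaks took in 2 of the 203 regions, or 0.985% (0.271 to 3.52), and 68 of the 1182 other Bach2 peaks, or 5.75% (4.56 to 7.23). Peaks of the same run are not independent, and 2 of these runs alone held 18 and 8 Bach2 peaks. The intervals are therefore too narrow, and the difference was not tested. Standing alone, with no other Bach2 peak within 50 kb, were 153 regions, or 75.4% (69.0 to 80.8), and 906 other peaks, or 76.6% (74.2 to 79.0).

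The 203 regions were spread over 20 chromosomes. Chromosome 2 held the most, 23 of its 110 Bach2 peaks, or 20.9% (14.4 to 29.4). Chromosome 13 has more Bach2 peaks than any other, 121, and 15 of these had Bach2 alone, or 12.4% (7.66 to 19.4). The lowest share was on chromosome 12, with 2 of 37, or 5.41% (1.5 to 17.7), and chromosome X had 1 of 14. The interval of each chromosome includes the 14.7% of the whole list, of which that chromosome is a part. Intervals on few peaks are wide, and differences between chromosomes were not tested.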

How the data were processed

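Peaks of Bach1, Bach2 and Mafk ChIP-seq in M1 cells were taken as deposited, 1 list per library. Base calls were handled with CASAVA 1.8, the aligner was BWA 0.7.10, the peak caller MACS2 2.1.0 and the build mm9, per the submitters' processing notes. The deposited values of a peak are its pileup (a signal, the fragment height at the summit) and its fold enrichment (a ratio to the control background), per the file headers. Peak names carry a q threshold of 0.01, and no q values are given. Reads per library are unknown from these lists. Input DNA entered only through the fold enrichment.

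Coordinates count from 1. The background was computed as (pileup + 1) / fold enrichment - 1 and divided by the lowest value that recurs in the list, which assumes the pseudocount of 1 that MACS2 uses. Values were computed with Python 3.11.15, pandas 2.3.3 and scipy 1.17.1, and merging was tested on simulated peaks. Named regions followed a rule: the 10 highest by fold enrichment and by pileup, the 5 weakest, the 5 nearest to Bach1 and to Mafk, and the 5 with the smallest overlap. The 12 regions at 2 times the Bach1 level were chosen after seeing values. Members and lists were chosen with earlier results of these data known. The reference tables describe another build, so genes and motifs were not analysed here and no sequence is printed.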

Additional observations from a re-analysis of the deposited data

How the results depend on the processing

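The number of regions with Bach2 alone depended on how strictly the lists were cut. It was 203 as reported and 66 when Bach2 peaks needed a fold enrichment of at least 4. That cut kept 61.4% of all Bach2 peaks and 32.5% of the regions. With equally long lists (the 1385 peaks of highest fold enrichment in each) the number of regions was 589, since many weaker Bach1 and Mafk peaks then no longer counted. Under 5 other settings it stayed between 181 and 293: a reciprocal overlap of 50% (277), summits within 100 bp (293), peaks within 500 bp or 2 kb joined (193 and 181), and lists without high background, at 5 times the lowest (207). The lower strength kept its direction: the log2 difference in median between regions with Bach2 alone and the other Bach2 regions was -0.41 in fold enrichment, -0.41 in pileup, -0.41 with every peak counted and -0.45 without high background. The 12 regions at 2 times the Bach1 level were 16 with backgrounds matched within 25%, and 3 with the 10th percentile of Bach1 values in place of the lowest; with the latter setting, the 4 regions whose ratio lay below every shared region became 0. These last settings, on the Bach1 level and its ratio, were chosen after seeing the data. The planned threshold on q was replaced by fold enrichment, and the planned distances to gene starts and counts of motifs were not run for want of an mm9 annotation and genome. No paired analysis was possible because there are no replicate libraries, and none could be left out.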
